A study of Homo sapiens with 9 samples.

Results

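The antisense long noncoding RNAs of MDA-MB-231 cells were studied under copper chelation with TEPA. They were chosen by name and by level, as the gene names of the count table that end in AS and a number, as FBXL19-AS1 does, with a mean of at least 1 CPM over all 9 libraries. CPM is the count of a gene for each 1000000 counts of its library. This rule found 214 RNAs among 1485 such names and 59453 gene names in all. MDA-MB-231 is an established human triple-negative breast cancer line of mesenchymal character, and TEPA is a polyamine that binds copper. The study sequenced 3 groups of 3 libraries, untreated cells and cells treated with TEPA for 8 h or for 24 h, all of the same parental line, for which the labels give no other agent or genetic change. The TEPA concentration is 8 mM in the sample labels and 4 mM in the sequencing methods. A single untreated group served both times, so the comparisons at 8 h and 24 h share their control libraries. The sources do not say whether the 3 libraries of a group came from separate cultures, and p-values then measure only the spread between these libraries.

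An antisense RNA is read from the strand opposite to that of a neighbouring gene, here called its sense gene, whose symbol it carries before the hyphen. Some antisense RNAs start beside the promoter of the sense gene and run away from it, others lie over its exons or introns, and many are kept in the nucleus and turned over there. Individual members are known to act on chromatin, on splicing or on microRNAs, while most have no described role.

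Total counts ran from 34633755 to 49342659 per library, and 16556 genes passed the expression filter of edgeR, among them all 214 antisense RNAs. Of the line's markers, VIM, CD44, KRT8 and KRT18 were abundant in every library, and EPCAM (0.850 to 1.82 CPM) and CDH1 (0.246 to 4.04 CPM) were low. CDH1 was highest at 24 h, with means of 0.618, 0.344 and 3.29 CPM in untreated, 8 h and 24 h cells. Of the receptors whose absence defines triple-negative cells, PGR was at 0 and ESR1 at 0.239 CPM or less, whereas ERBB2 RNA was at 53.6 to 86.8 CPM. Of 4 markers of other cell types, PTPRC and ALB stayed at 0.133 CPM or less. PECAM1 averaged 3.56, 1.04 and 8.38 CPM and COL1A1 13.5, 31.8 and 18.6 CPM in untreated, 8 h and 24 h cells, so both moved with treatment, and their part in the results was not tested.

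The antisense RNAs were mostly scarce. Their mean level over the 9 libraries had a median of 3.47 CPM and ran from 1.01 to 211 CPM, with 68 members under 2 CPM, 41 at 10 CPM or more and 4 at 50 CPM or more. Just inside the threshold lay CEBPB-AS1 (1.011 CPM), LIPE-AS1 (1.015 CPM) and SRRM2-AS1 (1.031 CPM), and just outside it MATN1-AS1 (0.9865 CPM), SOCS2-AS1 (0.9936 CPM) and RHPN1-AS1 (0.9968 CPM). In every library 168 members were at 1 CPM or more, and the other 46 fell below that level in at least 1 library, so that some of them may have met the threshold through the groups in which they were high. For 12 members the mean over the other groups was under 1 CPM once the highest group was left out, which was the 8 h group for 4 of them and the 24 h group for 8. ASMTL-AS1 met the threshold in this way through the 8 h group, and TNFRSF14-AS1, ZNF22-AS1 and CIRBP-AS1 through the 24 h group, so their differences from those groups are given as description.

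Positions were read from the GENCODE v44 annotation of hg38, and 210 members carry the lncRNA gene type there. Overlap with the sense gene, with starts apart, was found for 136 members, and in 114 of these exons of both genes overlapped. Another 72 members were head-to-head with the sense gene, that is, on opposite strands with starts within 1000 bases. The median distance between their starts was 416.5 bases, and some of these pairs overlap near the starts, as NUP153-AS1 and NUP153 do. Over all classes, 164 members had exons that overlap exons of the sense gene. The remaining members were 3 that lie on the opposite strand without overlap and 3 whose pair was not placed. Reads were counted with strand by the authors, so reads of an antisense RNA and of the sense exons beneath it were counted apart. The share of reads assigned to the wrong strand was not measured, which limits pairs whose sense gene is far more abundant. In untreated cells, per kb of exon, the antisense RNA stood at a median of 17.0% of its sense gene over 188 pairs, with quartiles of 4.23% and 51.6%. In 33 pairs the antisense RNA was above its sense gene per kb, and in 16 it was under 1% of it. Exon length here joins the exons of all annotated transcripts of a gene, expressed in these cells or not, and the per-kb shares depend on it.

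RefSeq promoter sequences (GRCh38.p14, 250 bases before to 50 bases after the start) were found for 175 members. The following 4 belong to RNAs whose changes lead the comparisons: FBXL19-AS1, which rose most at both times, CCNT2-AS1, which had the next largest rise at 24 h, NUP153-AS1, which fell most at 8 h, and MNX1-AS1, which fell most at 24 h. Each is printed 5′ to 3′ on the strand of the antisense RNA. Capitals mark every match to the GC box GGGCGG or to the metal response element core TGCGCNC or TGCACNC, on either strand.
FBXL19-AS1 (chr16:30923220-30923519, minus strand): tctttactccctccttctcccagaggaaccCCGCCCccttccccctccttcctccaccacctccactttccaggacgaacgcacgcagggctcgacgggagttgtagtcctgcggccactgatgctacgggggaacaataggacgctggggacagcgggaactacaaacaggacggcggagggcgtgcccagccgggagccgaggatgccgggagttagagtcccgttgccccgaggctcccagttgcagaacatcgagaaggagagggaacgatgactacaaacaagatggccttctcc
CCNT2-AS1 (chr2:134918557-134918856, minus strand): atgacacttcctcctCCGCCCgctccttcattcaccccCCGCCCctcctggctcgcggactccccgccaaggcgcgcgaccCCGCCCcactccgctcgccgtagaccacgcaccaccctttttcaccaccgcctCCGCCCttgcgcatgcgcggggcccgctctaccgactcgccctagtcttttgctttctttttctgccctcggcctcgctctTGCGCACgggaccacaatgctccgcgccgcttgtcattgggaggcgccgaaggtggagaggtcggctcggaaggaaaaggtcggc
NUP153-AS1 (chr6:17705880-17706179, plus strand): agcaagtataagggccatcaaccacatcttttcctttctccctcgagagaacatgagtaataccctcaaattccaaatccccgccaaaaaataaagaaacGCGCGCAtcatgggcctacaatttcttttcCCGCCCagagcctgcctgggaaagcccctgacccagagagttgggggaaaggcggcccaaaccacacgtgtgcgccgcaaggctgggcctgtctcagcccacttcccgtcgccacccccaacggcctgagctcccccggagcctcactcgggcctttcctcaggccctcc
MNX1-AS1 (chr7:157010607-157010906, plus strand): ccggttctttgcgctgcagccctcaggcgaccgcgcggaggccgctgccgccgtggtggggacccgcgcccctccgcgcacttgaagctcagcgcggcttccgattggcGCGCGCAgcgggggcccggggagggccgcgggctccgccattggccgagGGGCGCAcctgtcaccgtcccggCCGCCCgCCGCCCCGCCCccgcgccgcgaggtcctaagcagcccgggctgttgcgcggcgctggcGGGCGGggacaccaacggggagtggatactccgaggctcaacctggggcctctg

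The GC box is the site of the SP family of factors, and the metal response element is the site of the zinc-sensing factor MTF1. The FBXL19-AS1 window held 1 GC box and no metal response element core. The window of CCNT2-AS1 held 4 GC boxes and 1 core, that of NUP153-AS1 held 1 of each, and that of MNX1-AS1 held 4 GC boxes and 2 cores. GC boxes were present in 61.1% of the 175 member promoters and in 44.6% of all 27305 promoters, and the metal response element core in 40.6% and 29.4%. These sets were not matched for expression or GC content. For members the promoter nearest the annotated start was taken, and for all promoters the first listed of each gene. The difference between the shares was not tested. Matches of each motif were counted apart, whether or not they overlapped, and a match is a stretch of letters, not a measured binding site.

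Treatment with TEPA for 8 h was compared with untreated cells to ask which antisense RNAs change early. FBXL19-AS1 and SLFNL1-AS1 rose most, NUP153-AS1 and LPP-AS2 fell most, and more members rose than fell. By edgeR's quasi-likelihood test, 74 of the 214 antisense RNAs rose, 42 fell and 98 did not pass at an adjusted p under 0.05. Of all genes tested 49.6% were called, 25.2% higher and 24.5% lower. Of the members 54.2% were called, which is near the background in all but split as 34.6% higher and 19.6% lower. With a log2 fold change beyond 0.5 as well, 54 members were higher and 20 lower (25.2% and 9.35%), beside 10.1% and 7.67% of all genes, and 17.7% and 14.4% of the 3619 genes of a like level, 1 to 10 CPM. These shares were 20.8% and 8.33% for the 168 members at 1 CPM or more in every library, and 41.3% and 13% for the other 46. The median log2 fold change was 0.05 over the members and 0.00 over all genes. Among the 41 members with a mean of 10 CPM or more, 20 rose and 11 fell. In bulk RNA, a change in part of the cells and a change in all of them cannot be told apart.

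FBXL19-AS1 lies on chromosome 16 from 30919319 to 30923269 on the minus strand (hg38), head-to-head with FBXL19, a gene for an F-box protein that binds unmethylated CpG islands. The starts of the 2 genes are 214 bases apart, and 98 bases of their exons overlap. Its level, in CPM of totals scaled by edgeR's TMM factors as all levels that follow, was 1.01, 1.33 and 1.72 CPM in the untreated libraries, 5.05, 5.75 and 6.34 CPM after 8 h and 7.36, 7.11 and 7.34 CPM after 24 h. These levels rest on 38, 61 and 68 counts in untreated cells, 202, 220 and 233 after 8 h and 375, 307 and 264 after 24 h, and the 3 groups did not overlap. Its level was 4.19-fold higher at 8 h (log2 fold change 2.06 ± 0.15 SE, edgeR adjusted p = 4.01e-08) and 5.33-fold higher at 24 h (log2 2.42 ± 0.15, edgeR adjusted p = 2.51e-09). From 8 h to 24 h the rise was 0.35 on the log2 scale (edgeR adjusted p = 0.0209). That call was lost without replicate 1 of TEPA 8 h (log2 0.27, adjusted p = 0.1) or without replicate 1 of TEPA 24 h (log2 0.34, adjusted p = 0.0638). FBXL19 itself rose far less, from 57.5 ± 0.511 CPM (SD, n = 3) to 72.8 ± 3.29 CPM after 8 h and 69.8 ± 1.35 CPM at 24 h, a log2 fold change of 0.34 and 0.28. Per kb of exon, the antisense RNA went from 2.91% of FBXL19 in untreated cells to 9.66% at 8 h and 12.8% at 24 h.

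**Figure D1:**
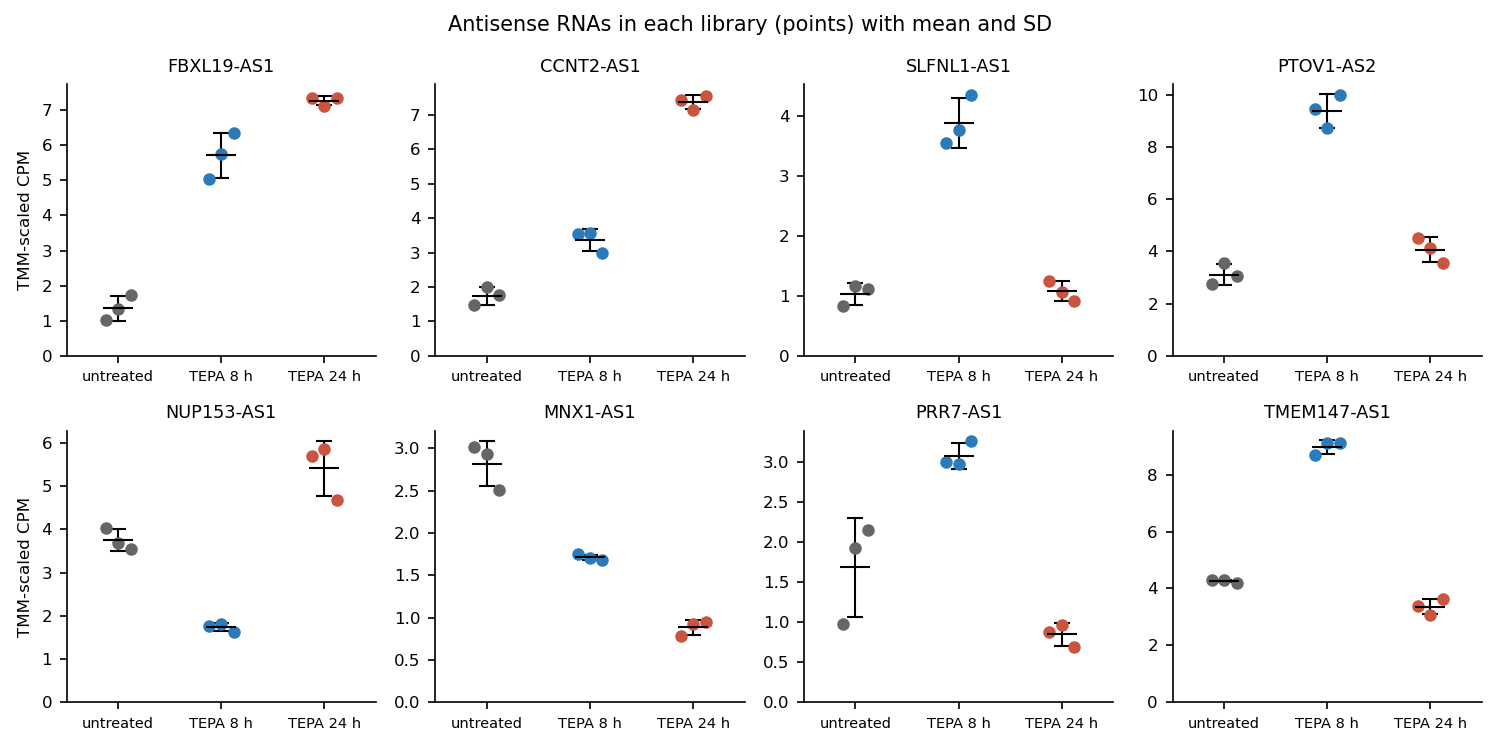
TMM-scaled CPM (vertical axis, from 0) of 8 antisense RNAs in the 3 untreated, 3 TEPA 8 h and 3 TEPA 24 h libraries; points are libraries, bars the mean and SD of 3. FBXL19-AS1 and CCNT2-AS1 were above untreated at 8 h and highest at 24 h, SLFNL1-AS1, PTOV1-AS2, PRR7-AS1 and TMEM147-AS1 were highest at 8 h, NUP153-AS1 was lowest at 8 h, and MNX1-AS1 was lowest at 24 h.

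Some of the RNAs that rose at 8 h were back near their untreated level at 24 h. SLFNL1-AS1 was at 0.827, 1.16 and 1.12 CPM in untreated cells, 3.55, 3.77 and 4.35 CPM at 8 h and 1.25, 1.07 and 0.918 CPM at 24 h. All 8 h libraries lay above all others, and the untreated and 24 h libraries overlapped. The rise at 8 h was 3.73-fold (edgeR adjusted p = 2.88e-07), and the log2 change at 24 h was 0.07 ± 0.20 (adjusted p = 0.788). SLFNL1, a schlafen-like gene, did not reach the expression filter. SLC9A3-AS1, antisense to the gene of the sodium-hydrogen exchanger NHE3, was at 14.8, 16.8 and 15.3 CPM, 35.4, 39.2 and 37.9 CPM and 17.4, 16.8 and 16.3 CPM in the same order. It was the most abundant of the 8 members that rose most at 8 h, with the 8 h libraries above all others, and its rise was 2.39-fold (edgeR adjusted p = 1.02e-09). ASMTL-AS1 was at 0.748 ± 0.0742, 1.83 ± 0.262 and 0.803 ± 0.237 CPM, and was a member only through its 8 h level.

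PTOV1-AS2 rose at 8 h beside a sense gene that fell. It was at 2.75, 3.55 and 3.04 CPM in untreated cells, 9.45, 8.71 and 9.99 CPM at 8 h and 4.53, 4.12 and 3.56 CPM at 24 h. The 8 h libraries stood clear of the rest, with a rise of 3.0-fold (log2 1.58 ± 0.12, edgeR adjusted p = 4.18e-08), while PTOV1, a gene named for its overexpression in prostate tumors, fell by a log2 difference of 0.20 (adjusted p = 0.00834). ATP2C2-AS1, which lies over the gene of a calcium and manganese pump of the secretory pathway, rose from 1.5 ± 0.202 to 4.21 ± 0.141 CPM (log2 1.48, adjusted p = 5.38e-07), and ATP2C2 did not reach the expression filter. ADIRF-AS1 rose as well and is described with its sense gene further on.

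Of the RNAs that fell at 8 h, NUP153-AS1 changed most. It lies on chromosome 6 from 17706094 to 17707344 on the plus strand, head-to-head with NUP153, the gene of a nucleoporin of the nuclear basket. Its level was 4.03, 3.68 and 3.55 CPM in untreated cells, 1.77, 1.80 and 1.63 CPM at 8 h and 5.69, 5.86 and 4.67 CPM at 24 h. The 8 h libraries were the lowest and the 24 h libraries the highest, with no overlap between groups. It fell at 8 h (log2 -1.11 ± 0.13, edgeR adjusted p = 5.46e-06) and was higher than untreated at 24 h (log2 0.53 ± 0.11, adjusted p = 8.67e-04). NUP153 was at 151 ± 3.69, 156 ± 3.31 and 159 ± 2.27 CPM in the 3 groups and did not pass the test in any comparison. LPP-AS2, head-to-head with the gene of the focal adhesion protein LPP, was at 3.71, 3.35 and 3.6 CPM in untreated cells and 1.75, 2.09 and 1.60 CPM at 8 h, without overlap (log2 -0.96, edgeR adjusted p = 4.80e-05). ZNF22-AS1, FOXP4-AS1, CIRBP-AS1 and DDN-AS1 fell as well, with log2 fold changes from -0.82 to -0.75, and for none of them did the untreated and 8 h libraries overlap. MUC12-AS1 fell by 0.74 (adjusted p = 0.0187), a call lost without replicate 2 of the untreated group (log2 -0.52, adjusted p = 0.105) or of TEPA 8 h (log2 -0.63, adjusted p = 0.0764).

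**Figure D2:**
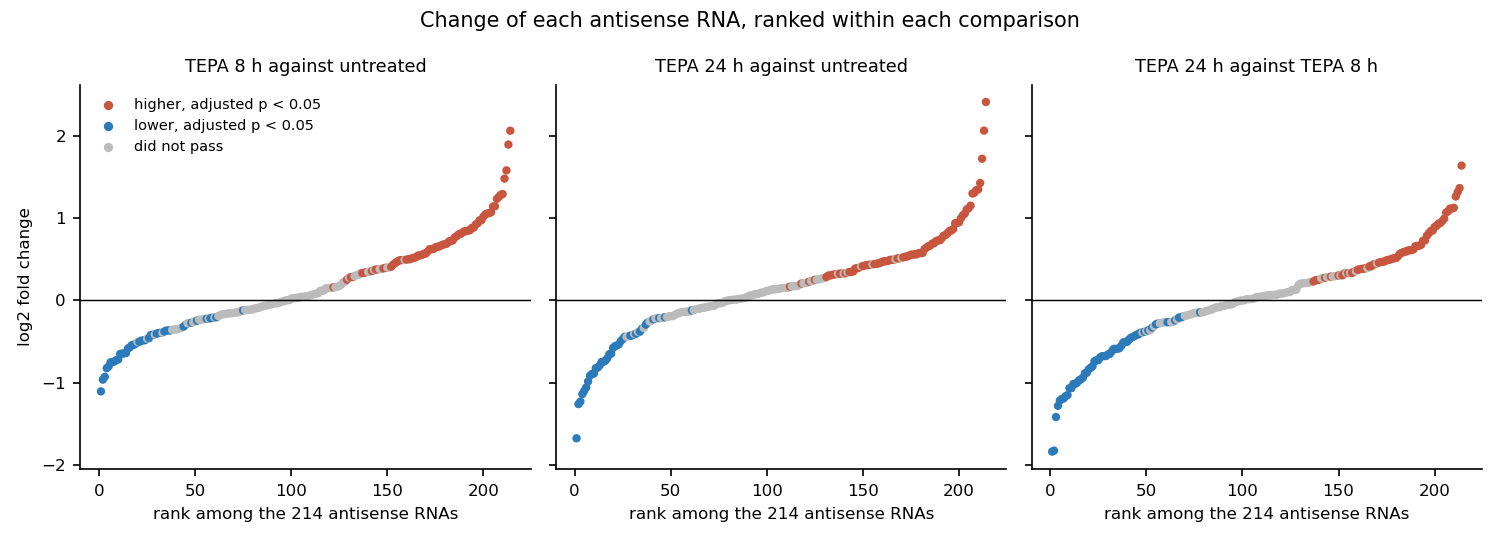
Log2 fold change (vertical axis) of the 214 antisense RNAs, ranked within each of the 3 comparisons (horizontal axis), coloured by edgeR adjusted p under 0.05 and direction. At 8 h 74 members were higher and 42 lower, at 24 h 81 and 37, and from 8 h to 24 h 65 and 59.

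After 24 h of TEPA the antisense RNAs again held more rises than falls. FBXL19-AS1, CCNT2-AS1 and PRKCZ-AS1 rose most, and MNX1-AS1, NOP14-AS1 and ZMIZ1-AS1 fell most. By edgeR 81 members rose, 37 fell and 96 did not pass, against a background of 52.5% of all genes called, 25.7% higher and 26.8% lower. Of the members 55.1% were called, 37.9% higher and 17.3% lower. With a log2 fold change beyond 0.5, 46 members were higher and 23 lower (21.5% and 10.7%), beside 10.2% and 8.46% of all genes and 18.9% and 14.5% of genes of 1 to 10 CPM. For the 168 members at 1 CPM or more in every library they were 19.05% and 11.3%, and for the other 46 they were 30.4% and 8.70%. The median log2 fold change was 0.15 over the members, 0.00 over all genes and 0.06 over the genes of 1 to 10 CPM. Among the 41 members with a mean of 10 CPM or more, 23 rose and 8 fell.

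CCNT2-AS1 is transcribed from chromosome 2, from 134735464 to 134918712 on the minus strand, and starts 477 bases from CCNT2, the gene of a cyclin of the elongation factor P-TEFb. Its level was 1.47, 1.99 and 1.77 CPM in untreated cells, 3.55, 3.56 and 2.99 CPM at 8 h and 7.43, 7.13 and 7.54 CPM at 24 h. The groups did not overlap, with untreated lowest and 24 h highest. The rise at 24 h was 4.19-fold (log2 2.07 ± 0.12, edgeR adjusted p = 1.97e-09) after 1.92-fold at 8 h (adjusted p = 2.87e-05). CCNT2 was at 20.9 ± 0.894 CPM in untreated cells and 18.9 ± 2.05 CPM at 24 h, a log2 difference of -0.15 that did not pass (adjusted p = 0.114). PRKCZ-AS1, over the gene of protein kinase C zeta, was at 0.960, 1.49 and 0.887 CPM, 2.27, 2.54 and 2.18 CPM and 3.90, 3.31 and 3.98 CPM in untreated, 8 h and 24 h cells. Its groups too were ordered by time with no overlap, and it rose by 1.72 ± 0.18 at 24 h on the log2 scale (edgeR adjusted p = 7.53e-07), while PRKCZ did not pass (log2 0.16, adjusted p = 0.304).

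EPB41L4A-AS1, a host transcript of a small nucleolar RNA, had the highest counts of the 8 members that rose most at 24 h, with 299, 346 and 330 counts in untreated cells and 996, 879 and 681 at 24 h. It was at 7.97, 7.57 and 8.37 CPM in untreated cells, 15.0, 14.2 and 15.0 CPM at 8 h and 19.5, 20.4 and 18.9 CPM at 24 h, with 3 separate groups. It rose by 1.30 ± 0.07 at 24 h (log2 scale, edgeR adjusted p = 4.94e-10). ZNF503-AS2, head-to-head with the zinc finger gene ZNF503, rose from 3.51 ± 0.261 to 8.69 ± 0.255 CPM (log2 1.31, adjusted p = 1.90e-08), with ZNF503 at 19.8 ± 0.544 and 19.2 ± 1.38 CPM. TMEM9B-AS1 rose by 1.34 on the log2 scale, and TMEM9B rose with it (log2 0.28). TNFRSF14-AS1, over the gene of a receptor of the TNF family, was at 0.656 ± 0.176 CPM in untreated cells and 1.75 ± 0.0947 CPM at 24 h, the level through which it was a member. The sense gene of EPB41L4A-AS1 did not reach the expression filter.

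MNX1-AS1 fell most at 24 h. It lies on chromosome 7 from 157010805 to 157016426 on the plus strand, 142 bases from the start of MNX1, a homeobox transcription factor gene. Its level was 3.01, 2.93 and 2.51 CPM in untreated cells, 1.75, 1.70 and 1.69 CPM at 8 h and 0.785, 0.927 and 0.945 CPM at 24 h. The groups did not overlap and were lower with time of treatment. It fell by 0.72 ± 0.14 at 8 h and its log2 fold change was -1.68 ± 0.16 at 24 h (edgeR adjusted p = 6.94e-04 and 3.09e-07). MNX1 was at 3.15, 2.5 and 2.97 CPM in untreated cells, 2.05, 2.90 and 2.18 CPM at 8 h and 1.73, 1.37 and 1.78 CPM at 24 h. Its 24 h libraries were below all untreated ones (log2 -0.82 ± 0.17, adjusted p = 7.37e-04), and its 8 h libraries overlapped them.

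NOP14-AS1, over the gene of a factor for assembly of the small ribosomal subunit, was at 23.9, 24.6 and 22.0 CPM in untreated cells, 15.2, 15.6 and 14.4 CPM at 8 h and 8.91, 10.4 and 10.2 CPM at 24 h. The groups were apart at each time, and it fell by 1.26 ± 0.07 at 24 h (log2 scale, edgeR adjusted p = 1.56e-09). NOP14 took another course, from 98.1 ± 7.54 CPM up to 124 ± 2.15 CPM at 8 h and down to 76.9 ± 1.93 CPM at 24 h. ZMIZ1-AS1, which lies beside and not over the gene of the transcriptional coregulator ZMIZ1, was at 9.49, 7.49 and 6.04 CPM in untreated cells and 2.79, 3.64 and 3.42 CPM at 24 h. Replicate 1 of the untreated group was the highest, yet all 24 h libraries lay below the untreated ones (log2 -1.23 ± 0.15, edgeR adjusted p = 4.67e-06), with ZMIZ1 at 312 ± 6.59 and 319 ± 8.06 CPM. PRRT3-AS1, PPP1R12A-AS1, PRR7-AS1 and PPP1R26-AS1 fell at 24 h with log2 fold changes from -1.14 to -0.92. ZBTB11-AS1, head-to-head with a zinc finger transcription factor gene, fell at both times (log2 -0.93 and -1.10, edgeR adjusted p = 0.00187 and 4.30e-04).

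The cells treated for 24 h were then compared with those treated for 8 h. NUP153-AS1 and TBC1D8-AS1 rose most between these times, and PRR7-AS1 and SLFNL1-AS1 fell most. By edgeR 65 members were higher at 24 h, 59 were lower and 90 did not pass, beside 54.8% of all genes called, 26% higher and 28.8% lower. With a log2 difference beyond 0.5, 37 were higher and 40 lower (17.3% and 18.7%), against 10.4% and 10.8% of all genes. Among genes of a like level, 1 to 10 CPM, these shares were 18.3% and 17.7%, near those of the members. For the 168 members at 1 CPM or more in every library they were 15.5% and 16.7%, and for the other 46 they were 23.9% and 26.1%.

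PRR7-AS1 was at 0.986, 1.93 and 2.15 CPM in untreated cells, 3.0, 2.98 and 3.27 CPM at 8 h and 0.883, 0.973 and 0.695 CPM at 24 h. The 8 h libraries were the highest and the 24 h libraries the lowest, and 1 untreated library was close to the 24 h range. The difference of 24 h from 8 h was -1.84 ± 0.23 on the log2 scale (edgeR adjusted p = 5.66e-06). TMEM147-AS1, head-to-head with a membrane protein gene, was at 4.29, 4.29 and 4.21 CPM, 8.70, 9.12 and 9.12 CPM and 3.39, 3.08 and 3.62 CPM in untreated, 8 h and 24 h cells. It was above untreated at 8 h and below it at 24 h, with no overlap, and the difference between the times was -1.42 ± 0.09 (edgeR adjusted p = 5.69e-09). VPS9D1-AS1 took the same course at a higher level, with 19.97, 24.9 and 23.6 CPM in untreated cells, 31.5, 30.8 and 34.3 CPM at 8 h and 13.7, 13.4 and 12.5 CPM at 24 h, and the difference of 24 h from 8 h was -1.28 ± 0.08 (edgeR adjusted p = 2.95e-09). SH3BP5-AS1 fell by 1.22 between the times (adjusted p = 6.57e-05). The rises from 8 h to 24 h were 1.64 for NUP153-AS1, 1.37 for TBC1D8-AS1 and 1.13 for CCNT2-AS1 on the log2 scale. ZNF22-AS1 and CIRBP-AS1, members through their 24 h level, differed by 1.32 and 1.27.

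Summed over the 214 members, the level was 1568 ± 5.09 CPM (SD, n = 3) in untreated cells, 1670 ± 9.67 CPM after 8 h and 1706 ± 25 CPM after 24 h. The sums of the TEPA libraries lay between 1664 and 1725 CPM, above the highest untreated sum of 1573 CPM. Without the 5 most abundant members the sums were 1094 ± 6.09, 1219 ± 13.7 and 1200 ± 13.8 CPM. The group mean was highest at 24 h for 90 members (42.1%), at 8 h for 71 (33.2%) and in untreated cells for 53 (24.8%). For all genes tested these shares were 34.3%, 33.8% and 31.9%. Of the 12 members that met the threshold only through their highest group, 8 did so at 24 h, 4 at 8 h and 0 in untreated cells. All genes tested were kept by another filter, and the part of the member rule in these shares and in the sums was not tested.

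Members were set beside other rows of the table at the same threshold of 1 CPM. Of 124 rows with LINC names, which are long noncoding RNAs lying apart from coding genes, 25 rose and 33 fell at 8 h and 38 rose and 27 fell at 24 h. Of 47 rows named as divergent transcripts (DT), which start beside a promoter and run away from it, 13 rose and 9 fell at 8 h and 12 rose and 7 fell at 24 h. Some members, BOLA3-AS1 and UBA6-AS1 among them, now carry a DT name, so these 2 classes differ partly by name alone. The 189 sense genes that were tested held 49 rises and 57 falls at both times, with medians of -0.02 and -0.03 on the log2 scale. By position, 22 of the 72 head-to-head members rose and 15 fell at 8 h, and 32 rose and 14 fell at 24 h. Of the 136 overlapping members 51 rose and 25 fell at 8 h, and 48 rose and 20 fell at 24 h. At 8 h 46.8% of LINC rows, 46.8% of DT rows and 56.1% of sense genes were called, beside 49.6% of all genes. At 24 h these shares were 52.4%, 40.4% and 56.1%, beside 52.5% of all genes. Of head-to-head members 51.4% and 63.9% were called at 8 h and 24 h, and of overlapping members 55.9% and 50%. These counts and shares stand side by side without a test between the classes.

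**Figure D3:**
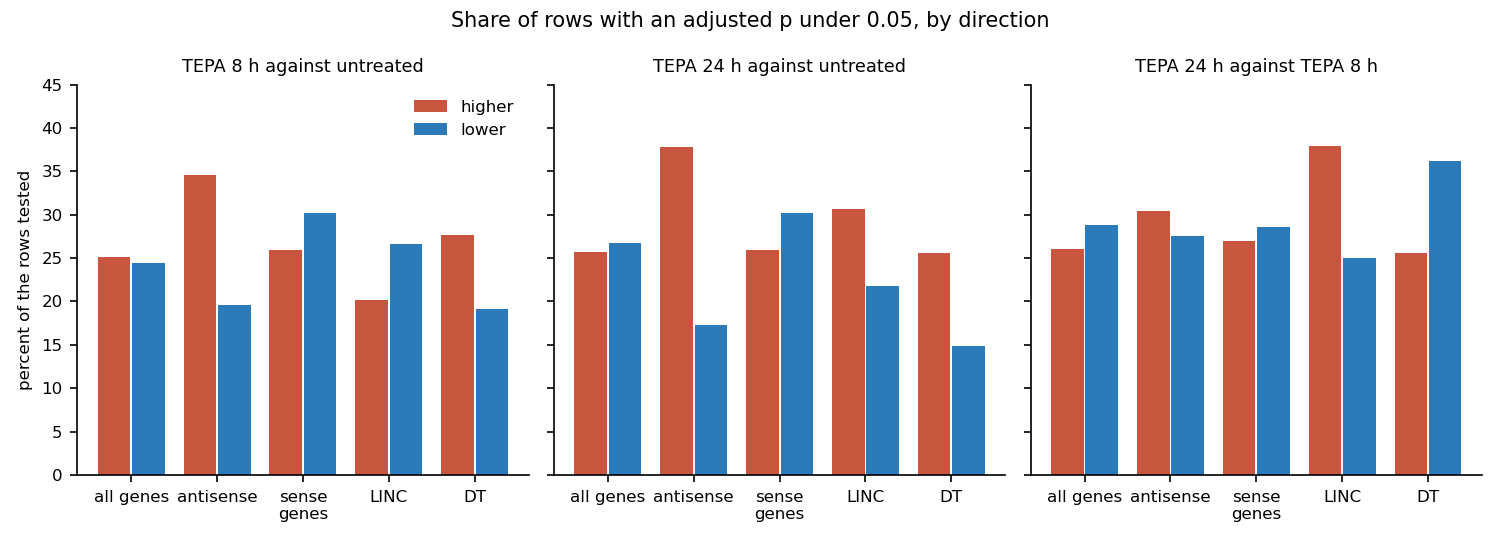
Percent of rows with an edgeR adjusted p under 0.05 (vertical axis, from 0), higher and lower, for all 16556 genes tested, the 214 antisense RNAs, their 189 tested sense genes, 124 LINC rows and 47 DT rows, in each comparison. At 24 h 37.9% of the antisense RNAs were higher and 17.3% lower, and at 8 h 34.6% and 19.6%.

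Each antisense RNA was then compared with its sense gene. Both were tested in 190 pairs with 189 sense genes, since TFAP2A-AS1 and TFAP2A-AS2 share TFAP2A. At 8 h the antisense RNA and the sense gene both changed in the same direction in 28 pairs and in opposite directions in 31, only the antisense RNA passed in 43, only the sense gene in 48 and neither in 40. At 24 h these counts were 39, 29, 40, 39 and 43. Across the 190 pairs the log2 fold changes of antisense RNA and sense gene had a Pearson correlation of 0.075 at 8 h and 0.156 at 24 h (Spearman 0.080 and 0.132). These describe the pairs, which share their libraries and scaling and are not independent. The antisense RNA had the larger change of the pair, without regard to sign, in 122 pairs at 8 h and 117 at 24 h. The part of the lower level of most antisense RNAs in this count was not tested.

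**Figure D4:**
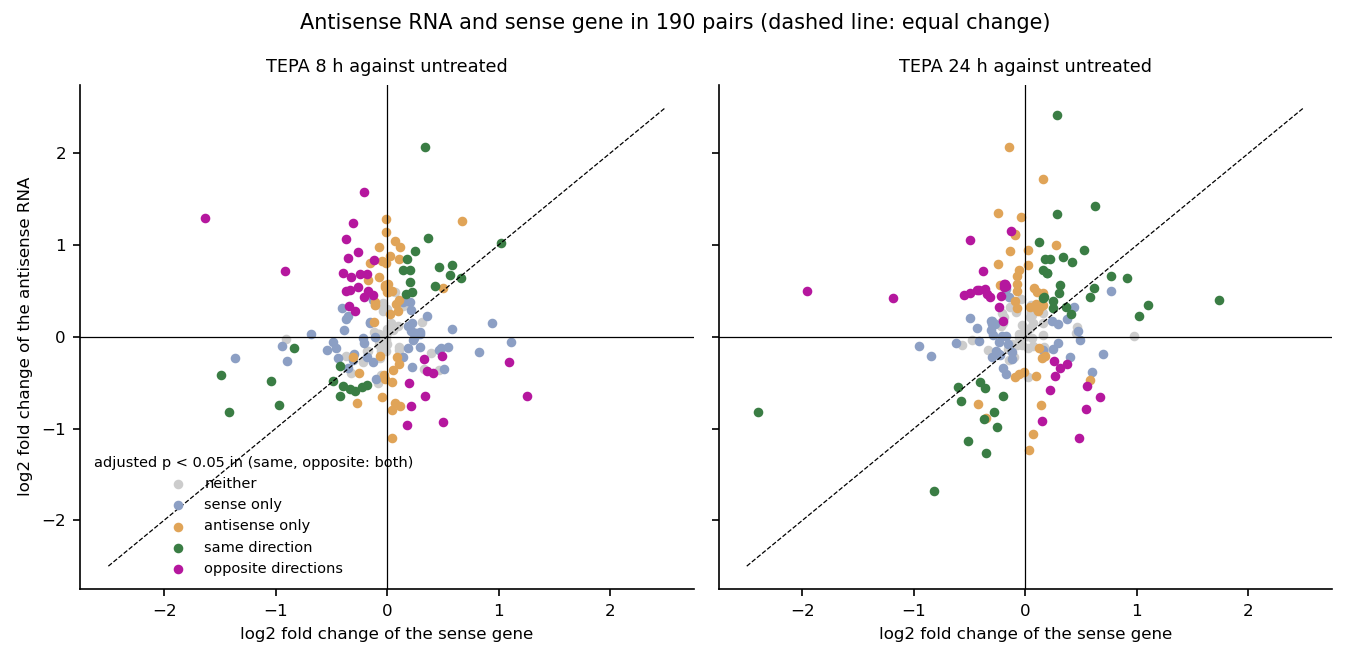
Log2 fold change of the antisense RNA (vertical axis) against that of its sense gene (horizontal axis) for 190 pairs at 8 h and 24 h, coloured by which of the pair passed at an edgeR adjusted p under 0.05. The pairs spread along both axes, with 28 and 39 pairs changed in the same direction and 31 and 29 in opposite directions at 8 h and 24 h.

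Whether the members of a pair changed by different amounts was tested on the log2 ratio of antisense to sense CPM in each library, with limma over all 378 pairs of an antisense RNA and its sense gene, members or not. At 8 h the ratio rose in 64 of the 190 member pairs and fell in 35 (52.1% called), beside 40.2% of all pairs called, 24.9% higher and 15.3% lower. At 24 h it rose in 64 and fell in 36 (52.6% called), beside 38.4% of all pairs called, 25.1% higher and 13.2% lower. From 8 h to 24 h it rose in 43 and fell in 49 (48.4% called), beside 39.4%, 19% and 20.4%. The 378 pairs include the member pairs, and in the others the antisense RNA is under the level of the member rule. Of the ratios called at 8 h, 64.7% were higher in member pairs and 61.8% in all pairs. At 24 h these shares were 64% and 65.5%. The median change of the ratio was 0.10 at 8 h and 0.16 at 24 h for the member pairs and 0.15 and 0.17 for all pairs.

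The largest rise of a ratio at 8 h was that of ADIRF-AS1, which lies on chromosome 10 from 86965345 to 86971311 over ADIRF, a gene that promotes fat cell formation. ADIRF-AS1 was at 6.26, 7.31 and 7.02 CPM in untreated cells, 16.3, 16.4 and 18.0 CPM at 8 h and 19.4, 17.1 and 16.0 CPM at 24 h. Both times lay above untreated and overlapped each other. ADIRF held 28, 25 and 14 counts in untreated cells, 7, 5 and 8 at 8 h and 23, 22 and 15 at 24 h. ADIRF-AS1 rose by 1.29 ± 0.09 at 8 h and 1.35 ± 0.09 at 24 h on the log2 scale (edgeR adjusted p = 1.75e-08 and 4.53e-09), while ADIRF fell by 1.64 ± 0.37 at 8 h (adjusted p = 0.00178) and did not pass at 24 h. The ratio rose by 2.68 ± 0.20 at 8 h (limma adjusted p = 6.72e-08) and was 1.53 ± 0.20 above untreated at 24 h. The low counts of ADIRF limit the precision of this ratio.

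LOXL1-AS1 and its sense gene both fell, by unequal amounts. LOXL1 belongs to the lysyl oxidase family, copper-dependent enzymes that crosslink collagen and elastin. LOXL1 was at 9.20, 7.29 and 7.86 CPM in untreated cells, 3.17, 3.08 and 3.18 CPM at 8 h and 1.53, 1.62 and 1.45 CPM at 24 h. LOXL1-AS1 was at 6.50, 5.52 and 5.50 CPM, 4.45, 5.25 and 5.17 CPM and 3.20, 3.15 and 3.56 CPM in the same order. LOXL1 was lower at each time without overlap, and LOXL1-AS1 was lowest at 24 h. At 24 h the log2 fold change was -2.40 ± 0.12 for LOXL1 and -0.82 ± 0.11 for LOXL1-AS1 (edgeR adjusted p = 3.75e-10 and 1.43e-05), and the ratio rose by 1.55 ± 0.13 (limma adjusted p = 1.08e-07). Per kb of exon, LOXL1-AS1 went from 48.3% of LOXL1 to 145% at 24 h.

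ZNF22-AS1, a member through its 24 h level, had the largest difference of a ratio at 24 h. It starts 35 bases from ZNF22, a zinc finger gene, and was at 1.04, 1.31 and 1.24 CPM in untreated cells, 0.675, 0.784 and 0.571 CPM at 8 h and 1.61, 1.97 and 1.5 CPM at 24 h. ZNF22 was at 47.6, 48.1 and 45 CPM, 19.2, 16.8 and 16.5 CPM and 11.9, 11.8 and 12.5 CPM. ZNF22 fell at both times, whereas ZNF22-AS1 was lowest at 8 h and highest at 24 h. The ratio was higher by 2.43 ± 0.20 at 24 h, where ZNF22 itself fell by 1.96 ± 0.06 on the log2 scale. The counts of ZNF22-AS1 were low, at 39, 60 and 49 in untreated cells and 82, 85 and 54 at 24 h. At 8 h the ratio was 0.64 above untreated (limma adjusted p = 0.0198), a call lost without replicate 1 of the untreated group (0.53, adjusted p = 0.0774) or replicate 2 of TEPA 8 h (0.51, adjusted p = 0.091). BOLA3-AS1 starts 95 bases from BOLA3, the gene of a mitochondrial iron-sulfur cluster factor. BOLA3 was at 64.4, 79.1 and 71.5 CPM in untreated cells, 75, 75.1 and 71.6 CPM at 8 h and 31.0, 32.6 and 31.0 CPM at 24 h, and it fell by 1.19 at 24 h (edgeR adjusted p = 5.54e-10). BOLA3-AS1 stood at 3.93 ± 0.860, 2.78 ± 0.496 and 5.22 ± 0.321 CPM, and its ratio to BOLA3 rose by 1.60 ± 0.19 at 24 h against untreated and by 2.14 ± 0.19 against 8 h (limma adjusted p = 7.07e-06 and 3.82e-07). At 8 h this ratio was -0.53 from untreated (limma adjusted p = 0.0368), a call lost without replicate 1 of the untreated group (-0.30, adjusted p = 0.201) or replicate 1 (-0.54, adjusted p = 0.0846) or 2 (-0.39, adjusted p = 0.164) of TEPA 8 h. For FBXL19-AS1 the ratio rose by 1.72 at 8 h and 2.13 at 24 h, and for CCNT2-AS1 by 0.69 and 2.21.

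The ratios that fell most at 8 h belonged to pairs whose sense gene rose. TSPOAP1-AS1 was at 2.96, 3.24 and 2.64 CPM in untreated cells and 2.10, 1.96 and 1.58 CPM at 8 h. TSPOAP1, the gene of a RIM-binding protein, was at 6.91, 7.66 and 5.91 CPM in untreated cells and 15.6, 16.8 and 16.7 CPM at 8 h. The antisense RNA fell and the sense gene rose without overlap, and their ratio fell by 1.90 ± 0.15 at 8 h (limma adjusted p = 6.72e-08). Per kb of exon, TSPOAP1-AS1 was 101% of its sense gene in untreated cells and 26.8% at 8 h. MZF1-AS1, over a zinc finger transcription factor gene, showed a log2 change of its ratio of -1.36 ± 0.11 at 8 h (limma adjusted p = 6.72e-08), with MZF1 up from 9.75 ± 0.342 to 20.8 ± 1.21 CPM. ZBTB11-AS1 fell while ZBTB11 rose from 31.6 ± 2.61 to 44.8 ± 2.49 CPM after 8 h and 44.2 ± 1.05 CPM after 24 h, and the ratio changed by -1.44 and -1.55 (limma adjusted p = 6.36e-05 and 2.64e-05).

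At 24 h the ratio also fell for FLG-AS1, MAP3K14-AS1 and VPS9D1-AS1. FLG-AS1 itself rose, from 14.3 ± 0.924 to 18.9 ± 0.926 CPM, yet FLG, the gene of the epidermal protein filaggrin, rose more, from 5.20 ± 1.52 to 17.5 ± 1.58 CPM, and the ratio fell by 1.38 ± 0.16 (limma adjusted p = 4.12e-06). MAP3K14-AS1 fell by 0.66 on the log2 scale while MAP3K14, the kinase gene of noncanonical NF-kB signaling, rose by 0.67 (edgeR adjusted p = 1.04e-05 and 3.25e-08). In untreated cells VPS9D1-AS1 stood at 22.8 ± 2.57 CPM against 9.12 ± 0.352 CPM for VPS9D1, and at 24 h at 13.2 ± 0.586 against 13.3 ± 1.27 CPM, with a log2 change of the ratio of -1.32 ± 0.11. IL6-AS1 was called at 8 h with a ratio 1.59 ± 0.26 above untreated (limma adjusted p = 1.96e-04). IL6, the gene of interleukin 6, was at 20.9, 11.4 and 13.7 CPM in untreated cells, where replicate 1 stood above the others, and at 7.60, 8.81 and 7.86 CPM at 8 h. IL6-AS1 was at 0.693, 0.766 and 1.19 CPM in untreated cells and 1.55, 1.36 and 1.44 CPM at 8 h, and the groups of neither gene overlapped.

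**Figure D5:**
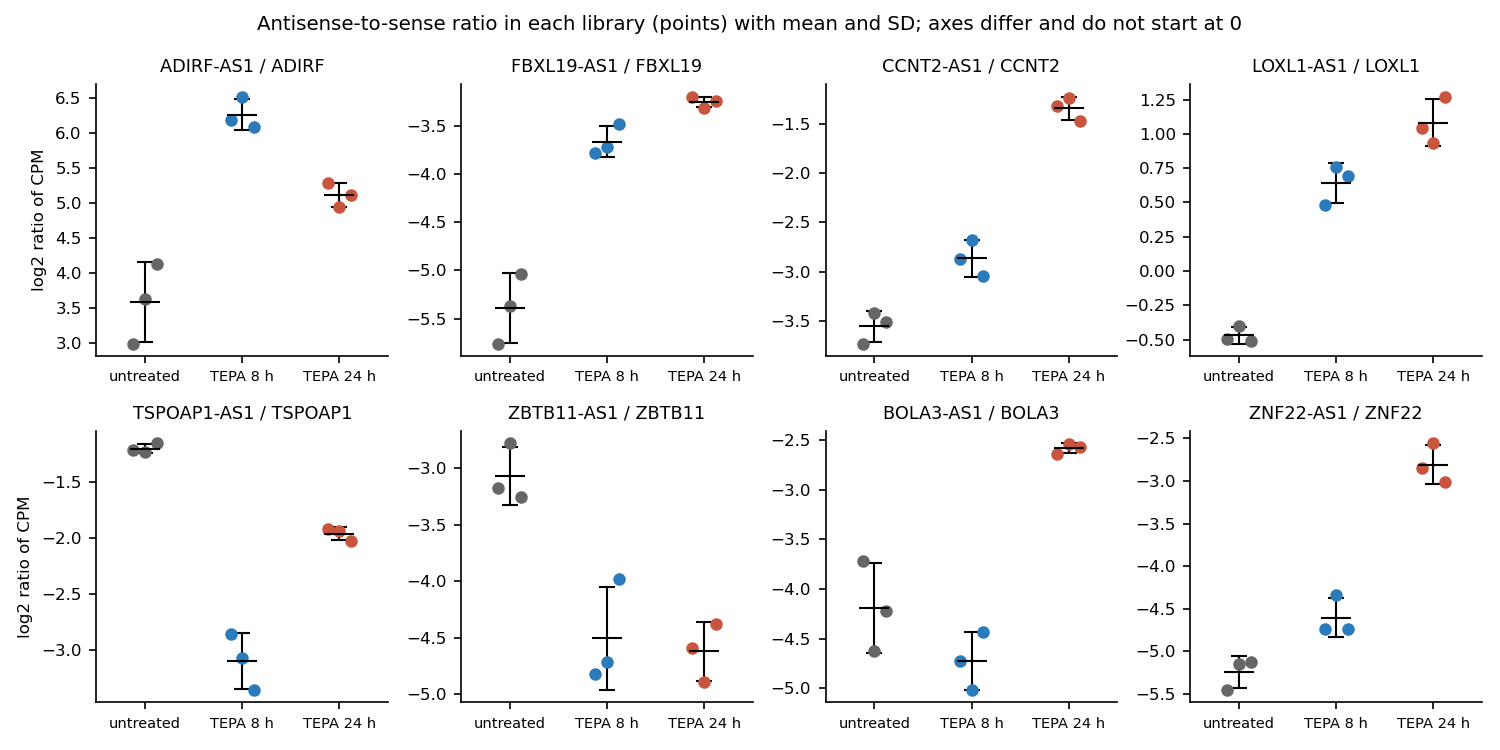
Log2 ratio of antisense to sense CPM (vertical axes, which differ and do not start at 0) for 8 pairs in the 3 libraries of each group; points are libraries, bars the mean and SD of 3. The ratio rose at 8 h and 24 h for ADIRF-AS1, FBXL19-AS1, CCNT2-AS1 and LOXL1-AS1, fell at both for TSPOAP1-AS1 and ZBTB11-AS1, and was highest at 24 h for BOLA3-AS1 and ZNF22-AS1, which at 8 h differed from untreated by -0.53 and 0.64.

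Of the 5 most abundant members, FGD5-AS1 was the highest, at 202 ± 6.04, 196 ± 4.85 and 234 ± 8.16 CPM in untreated, 8 h and 24 h cells, and its rise at 24 h was 0.21 on the log2 scale (edgeR adjusted p = 3.27e-04). OIP5-AS1, which binds a microRNA and is among the best conserved of these RNAs, was at 88.1 ± 2.97, 75.8 ± 3.0 and 91.8 ± 8.93 CPM, and fell at 8 h (log2 -0.22, edgeR adjusted p = 0.00629). SVIL-AS1 was at 90.4 ± 0.532, 83.0 ± 1.32 and 83.1 ± 1.93 CPM, and SVIL, the gene of the actin-binding protein supervillin, fell at 8 h from 391 ± 61.2 to 219 ± 7.80 CPM and was at 425 ± 18.6 CPM at 24 h. PAX8-AS1 rose by 0.28 at 8 h (adjusted p = 4.32e-04) while PAX8, a transcription factor gene, fell by 0.28 (adjusted p = 0.00656). SLCO4A1-AS1 and SLCO4A1, the gene of an organic anion transporter, dipped together at 8 h. SLCO4A1-AS1 was at 33.8, 36.8 and 36.6 CPM in untreated cells, 22.6, 27.5 and 26.7 CPM at 8 h and 43.5, 45.5 and 43.4 CPM at 24 h, and SLCO4A1 at 53.0, 59.0 and 55.3 CPM, 25.2, 27.8 and 28.2 CPM and 58.9, 62.6 and 58.7 CPM. The 8 h libraries of both were the lowest, with log2 fold changes of -0.48 and -1.04 (edgeR adjusted p = 1.81e-05 and 1.67e-09).

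Of a list of antisense RNAs with described roles, 32 were members. At 8 h 11 of them rose and 4 fell, at 24 h 17 rose and 6 fell, and from 8 h to 24 h 13 were higher and 10 lower, with medians of 0.05, 0.22 and 0.05 on the log2 scale. In all 46.9%, 71.9% and 71.9% of them were called, beside 49.6%, 52.5% and 54.8% of all genes. Several of them are abundant, and of all members with a mean of 10 CPM or more, 75.6%, 75.6% and 70.7% were called. The part of level in the shares of the list was not tested. Some of these calls were not stable. The fall of TMPO-AS1 at 8 h was lost without replicate 1 of the untreated group (edgeR adjusted p = 0.076). That of DLGAP1-AS1 was lost with DESeq2 (adjusted p = 0.0574). Between the times, calls of HIF1A-AS3, PXN-AS1, DLGAP1-AS1, DLGAP1-AS2 and DHRS4-AS1 were lost without single libraries. Of the rises at 24 h, those of TMPO-AS1, DLGAP1-AS2 and WDFY3-AS2 were lost with DESeq2 (adjusted p = 0.07, 0.0652 and 0.0624) and without single libraries. Those of THAP9-AS1 and PTOV1-AS2 were lost without replicate 3 and replicate 1 of TEPA 24 h (edgeR adjusted p = 0.0529 and 0.0905). PXN-AS1, over the gene of the focal adhesion protein paxillin, was at 2.93, 2.60 and 3.50 CPM in untreated cells, 4.65, 5.07 and 5.17 CPM at 8 h and 6.02, 6.30 and 6.45 CPM at 24 h. It rose with no overlap of the groups (log2 1.06 ± 0.11 at 24 h, edgeR adjusted p = 1.21e-06), while PXN rose at 8 h and fell at 24 h, with 416 ± 27.9, 481 ± 9.09 and 295 ± 12.9 CPM. GABPB1-AS1, head-to-head with a subunit gene of the factor GABP, rose from 10.2 ± 1.34 to 19.4 ± 0.247 CPM at 8 h and stood at 14.6 ± 0.386 CPM at 24 h, with GABPB1 lower at both times (log2 -0.26 and -0.41). PSMA3-AS1, which overlaps a proteasome subunit gene, rose by 0.84 and 0.58 (edgeR adjusted p = 5.45e-07 and 1.99e-05).

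NNT-AS1, head-to-head with the gene of a mitochondrial transhydrogenase, did not pass at 8 h and rose at 24 h, with 19.8 ± 1.01, 19.8 ± 1.86 and 32.9 ± 3.11 CPM (log2 0.73 at 24 h, edgeR adjusted p = 1.06e-06). IQCH-AS1 and PRKAR2A-AS1 rose at 24 h by 1.12 and 1.11 on the log2 scale, and FOXD2-AS1 rose at 8 h by 0.81 and stood at 0.13 at 24 h, which did not pass. Falls at 24 h were found for DHRS4-AS1 (log2 -0.70), KIF9-AS1 (log2 -0.55) and MCM3AP-AS1 (log2 -0.43), besides LOXL1-AS1. The other calls of a fall were LBX2-AS1 (log2 -0.23) and ZNF561-AS1 (log2 -0.43), both lost with DESeq2 (adjusted p = 0.0612 and 0.0594). Without replicate 2 of the untreated group (adjusted p = 0.0595 and 0.0829) or replicate 3 of TEPA 24 h (0.173 and 0.0767) both were lost too, and LBX2-AS1 was also lost without replicate 3 of the untreated group (0.0932). ZEB1-AS1, antisense to the gene of a transcription factor of the epithelial-mesenchymal transition, was at 9.84, 8.84 and 8.44 CPM in untreated cells, 9.25, 9.20 and 9.99 CPM at 8 h and 9.04, 9.15 and 9.43 CPM at 24 h. The groups overlapped, and neither ZEB1-AS1 (log2 0.07 ± 0.08 and 0.03 ± 0.08) nor ZEB1 (log2 0.05 and -0.06) passed against untreated cells. SNAI3-AS1 did not pass either (log2 -0.06 ± 0.13 and 0.00 ± 0.12).

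Genes of the machinery that handles such RNAs were counted from lists. Of 21 genes of nuclear RNA turnover, among them the exosome subunits and their NEXT and PAXT adaptors, 11 rose and 2 fell at 8 h, 4 rose and 6 fell at 24 h, and 3 rose and 14 fell from 8 h to 24 h. In all 61.9%, 47.6% and 81.0% of them were called, beside 49.6%, 52.5% and 54.8% of all genes, and their median log2 change was 0.12, -0.05 and -0.21. ZFC3H1, a PAXT component, rose from 59.6 ± 0.599 to 84.1 ± 3.77 CPM at 8 h and was at 69.5 ± 0.405 CPM at 24 h, and PABPN1, the nuclear poly(A)-binding protein gene, rose from 47.6 ± 5.10 to 66.7 ± 1.30 CPM and was at 43.8 ± 2.33 CPM at 24 h. Of 17 genes that edit, sense or process double-stranded RNA, 9 rose and 2 fell at 8 h and 9 rose and 4 fell at 24 h, which is 64.7% and 76.5% called. IFIH1, a sensor of double-stranded RNA, was at 14.7, 13.6 and 13.5 CPM in untreated cells, 8.72, 8.23 and 8.84 CPM at 8 h and 24.4, 25.9 and 25.4 CPM at 24 h. It was lowest at 8 h and highest at 24 h, with no overlap (log2 -0.70 and 0.86, edgeR adjusted p = 6.74e-07 and 1.54e-08). Whether these changes have a part in those of the antisense RNAs was not tested. By the name of the sense gene, 15 members lie by zinc finger genes, those with names in ZNF, ZBTB, ZSCAN, ZFP or ZEB. Zinc finger genes of other names, such as MZF1, are not counted here. Of the 15 members, 4 rose and 4 fell at 8 h and 5 rose and 3 fell at 24 h. Another 7 lie by proteasome or ubiquitin genes, of which 2 rose and 2 fell at 8 h and 4 rose and 1 fell at 24 h. Called at 8 h and 24 h were 53.3% and 53.3% of the former and 57.1% and 71.4% of the latter, beside 49.6% and 52.5% of all genes.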

How the data were processed

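Polyadenylated RNA of MDA-MB-231 cells was sequenced by the study in 3 untreated, 3 TEPA 8 h and 3 TEPA 24 h libraries, made with a stranded mRNA kit. The deposited values are raw read counts per gene name. Per the study's methods, the authors checked reads with FastQC, aligned them to hg38 with HISAT2 and counted read pairs by strand over exons with featureCounts and an Ensembl GRCh38 annotation. Reads shared between genes and RNAs without a poly(A) tail are therefore measured poorly. Groups follow the sample labels.

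The table was fitted as a whole with edgeR 4.0.16 in R 4.3.3, using filterByExpr with a minimum count of 10, TMM factors (0.978 to 1.04) and the quasi-likelihood test over all 9 libraries, with Benjamini-Hochberg adjustment over 16556 genes. These genes held 99.95% of the counts. Members were called at an adjusted p under 0.05. The member rule and the marker levels use CPM of the library total, and all other levels CPM of the TMM-scaled total, and SE is the size of the log2 fold change over the root of its F value. Antisense-to-sense ratios were tested with limma 3.58.1 on log2 CPM with a prior count of 2, adjusted over 378 pairs. Both tests were tested on simulated data. Depth limits members near 1 CPM, as the counts given for FBXL19-AS1 show.

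Named genes are FBXL19-AS1, the 8 highest and 8 lowest called members against untreated cells, 5 and 5 between the times, 4 and 4 for the ratio, the 5 most abundant members, a list of members with described roles, and the sense genes of all these. Not all of these are reported here, and members not given singly stand in the counts. ZFC3H1, PABPN1 and IFIH1 were named after their values were seen. The members and lists were chosen with earlier results of these data known. DESeq2 1.42.0, other scalings, filters, call rules and prior counts, a replicate block, fits of the compared groups alone and leaving out each library were tried as alternatives. Positions come from GENCODE v44 on hg38, a later annotation than the authors used, and promoters from RefSeq on GRCh38.p14.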

Additional observations from a re-analysis of the deposited data

Results flagged for a closer look

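The changes of 124 antisense RNAs differed between 8 h and 24 h by edgeR's quasi-likelihood test of the difference itself, which is the comparison of the TEPA libraries with each other, against a background of 54.8% of all genes. The log2 differences of 24 h from 8 h that were negative and largest in size were -1.84 for PRR7-AS1, -1.83 for SLFNL1-AS1, -1.42 for TMEM147-AS1, -1.28 for VPS9D1-AS1 and -1.22 for SH3BP5-AS1. The largest positive ones were 1.64 for NUP153-AS1, 1.37 for TBC1D8-AS1, 1.32 for ZNF22-AS1, 1.27 for CIRBP-AS1 and 1.13 for CCNT2-AS1.

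The antisense-to-sense ratio differed between the 2 times in 92 member pairs (48.4%) by limma, against a background of 39.4% of all pairs, which include them. The log2 difference of the ratio was -1.9 for PRR7-AS1, -1.6 for VPS9D1-AS1, -1.35 for PRRT3-AS1 and -1.35 for TMEM147-AS1. It was 2.14 for BOLA3-AS1, 1.87 for HECW2-AS1, 1.87 for CIRBP-AS1 and 1.79 for ZNF22-AS1. ZNF22-AS1 and CIRBP-AS1 met the level of the member rule only through the 24 h group, in which they are high.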

How the results depend on the processing

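None of the 313 called values of named members and their ratios changed direction under a setting that was run for it, and no count of called members at an adjusted p under 0.05 moved by more than 1.5 times under another tool, scaling, filter or choice of libraries. Requiring a log2 fold change beyond 0.5 as well moved the counts most, to 74 called at 8 h with 20 lower, to 69 called at 24 h with 46 higher and 23 lower, and to 77 called between the times with 37 higher. DESeq2 called 99, 104 and 112 members at 8 h, at 24 h and between the times. Without 1 library the counts were 98 to 106, 97 to 110 and 106 to 113 for the members, and 86 to 94, 81 to 93 and 80 to 89 for the ratios. Of these values 251 stayed called under every setting, and 183 of the 239 lost calls came from leaving out a library.

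Libraries with the same replicate number did not deviate together, with correlations of their deviations from the group means between -0.0801 and 0.0383. With the replicate number as a block, 111, 115 and 119 members and 92, 93 and 89 ratios were called in the same order, so the block left each count within 1.5 times of that without it, and 14 single calls were lost.

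Members near 1 CPM rest on few counts, and the 3 libraries of a group limit the precision of each value. A single untreated group serves both times, so time in culture cannot be told apart from treatment, and the TEPA concentration differs between the sources.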
